A study of Mus musculus with 10 samples.

Results

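The step from 4 to 6 weeks of age in the mouse dentate gyrus was examined by setting the 2 arrays of 6 weeks against the 2 arrays of 4 weeks, 4 of the 10 arrays of the series. The arrays were taken by the age in their titles, and the list medians and the leading genes are given with both 6-week arrays and with the second of them alone. All 10 samples were total RNA of dentate gyri that had been cut free of the other hippocampal regions with a needle tip, from mice of a strain written as C56BL/6J and labelled female, with no treatment. The other 6 arrays covered 8, 10 and 12 weeks, with 2 per age. They entered the test of 6 versus 4 weeks only through the spread between arrays of one age. Their levels entered the comparisons with later steps directly. Levels are log2 values per gene, so a difference of 1 is a 2-fold difference. Nothing in the labels tells if both arrays of an age were separate mice, pools or one preparation, so a p-value here weighs a difference only against array-to-array spread, some of which may be technical.

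The tissue identity and the quality of the 4 arrays were checked first. Prox1, the granule cell transcription factor, lay between 12.32 and 12.37 on these arrays, and Calb1, the calcium buffer calbindin of mature granule cells, between 12.62 and 12.73. The sex label went against the data: Xist, which silences one X chromosome in females, read 5.41 to 5.84, under the dim reference of 7.01 (the 95th percentile of 1203 olfactory and related receptor genes), while the Y-linked Eif2s3y lay between 8.90 and 9.16, Kdm5d between 9.12 and 9.20 and Uty between 9.12 and 9.34. The 10 array medians lay between 8.27 and 8.31, and correlations between arrays across genes were 0.994 to 0.998. Array 6 weeks replicate 1 stood apart in Ttr, the thyroid hormone carrier transthyretin made by the choroid plexus, at 13.77 against 8.87 to 10.15 on the other 9 arrays. Over 28 choroid plexus genes the mean level was 8.57 on that array, 7.86 on 6 weeks replicate 2 and 7.75 on both 4-week arrays.

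The dentate gyrus keeps a stem cell niche after birth. Radial glia-like stem cells give rise to dividing intermediate progenitors, these to neuroblasts that extend processes and migrate a short way, and these to mature granule cells. In rodents the output of this niche is high in the juvenile and declines with age, while oligodendrocytes are still being formed and myelin is still being laid down in the surrounding layers.

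The widest gaps between the ages on the lower side included genes of immature neurons (Dcx, Cd24a, Dpysl3), dividing cells (Mki67) and newly formed oligodendrocytes (Enpp6), and those on the higher side included genes of meninges and secreted matrix (Dcn, Fmod, Prelp), Apod and Lcn2. No single gene passed the test, however. In limma's moderated test with Benjamini-Hochberg adjustment, 0 of 19752 genes (0.0%) passed at 0.05 with both 6-week arrays, and 0 without 6 weeks replicate 1. At an unadjusted p under 0.05 there were 815 genes (4.13%), 443 higher (2.24%) and 372 lower (1.88%) at 6 weeks, and 605 genes (3.06%) without that array. The lowest adjusted p was 0.105, shared by Dcx, Enpp6 and Dpysl3. These were also the genes most often past the threshold under other settings: limma with trended and robust variances passed 11 genes (3 higher, Apod, Efemp1 and Penk, and 8 lower, Cd24a, Dcx, Dpysl3, Enpp6, Ide, Igfbpl1, Nrep and Sox11), and array weights or leaving out the dimmest 30% of genes each passed Dcx, Dpysl3 and Enpp6 alone. A permutation test of 2 arrays against 2 cannot give an exact two-sided p under 0.333.

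Because single genes did not pass, the groups below are described by how many members had both 6-week arrays above or both below the 4-week arrays. Over all genes this held for 3919 (19.8%) on the higher side and 3151 (16.0%) on the lower side. Higher genes made up 55.4% of the non-overlapping genes on the deposited scale, 48.8% after quantile normalization and 35.7% after centring each array on its median, so the overall split has no fixed direction. With 6 weeks replicate 2 alone, that array lay above both 4-week arrays for 38.9% of genes and below both for 30.2%. The median difference of all genes was 0.0064.

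Most immature neuron genes lay lower at 6 weeks. Of 32 measured neuroblast genes, 23 had both 6-week arrays below both 4-week arrays and 1 had them above, and the median difference was -0.20, or -0.18 with 6 weeks replicate 2 alone. In tissue RNA, fewer cells of a type and less RNA per cell cannot be told apart. Dcx, the microtubule-binding doublecortin of migrating neuroblasts (chrX:143855842-143933396, GRCm38.p6), read 10.38 and 10.44 at 4 weeks and 9.71 and 9.76 at 6 weeks. Its difference was -0.68 ± 0.07 (SE), 1.6-fold lower (limma adjusted p = 0.105), and -0.65 ± 0.10 without 6 weeks replicate 1. The gap between the ages was wider than the spread within either age.

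Cd24a, a surface glycoprotein of newborn neurons, had the largest difference of the list, with 10.31 and 10.25 at 4 weeks against 9.59 and 9.39 at 6 weeks (-0.79 ± 0.14, and -0.90 ± 0.17 without 6 weeks replicate 1). Its 6-week arrays were less alike than those of Dcx. Dpysl3, a collapsin response mediator protein of growth cones, read 10.68 and 10.79 and then 10.22 and 10.15 (-0.55 ± 0.07, adjusted p = 0.105). The paired SoxC factors, which drive early neuronal genes, lay lower as well: Sox11 read 10.33 and 10.48 and then 9.94 and 9.91, and Sox4 9.17 and 9.28 and then 8.92 and 8.82. Tmsb10, an actin-binding thymosin, was among the closest within each age, with 10.61 and 10.62 against 10.24 and 10.23. Neurod1, the differentiation factor of granule neurons, differed by -0.30 ± 0.11, and Sema3c, a secreted guidance cue, by -0.39 ± 0.09.

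Cytoskeletal genes of growing neurites differed by less. Tuba1a and Tubb2b, tubulins abundant in young neurons, differed by -0.23 ± 0.07 and -0.22 ± 0.09, and Dpysl5, a relative of Dpysl3, by -0.22 ± 0.06. Of 34 tubulin, stathmin and microtubule genes, a list that shares members with the neuroblast list, 17 lay lower on both arrays and 2 higher, with a median of -0.04 in both settings. Nrep, a neuronal regeneration-related protein chosen after its values were seen, read 12.11 and 12.21 and then 11.86 and 11.78.

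**Figure D1:**
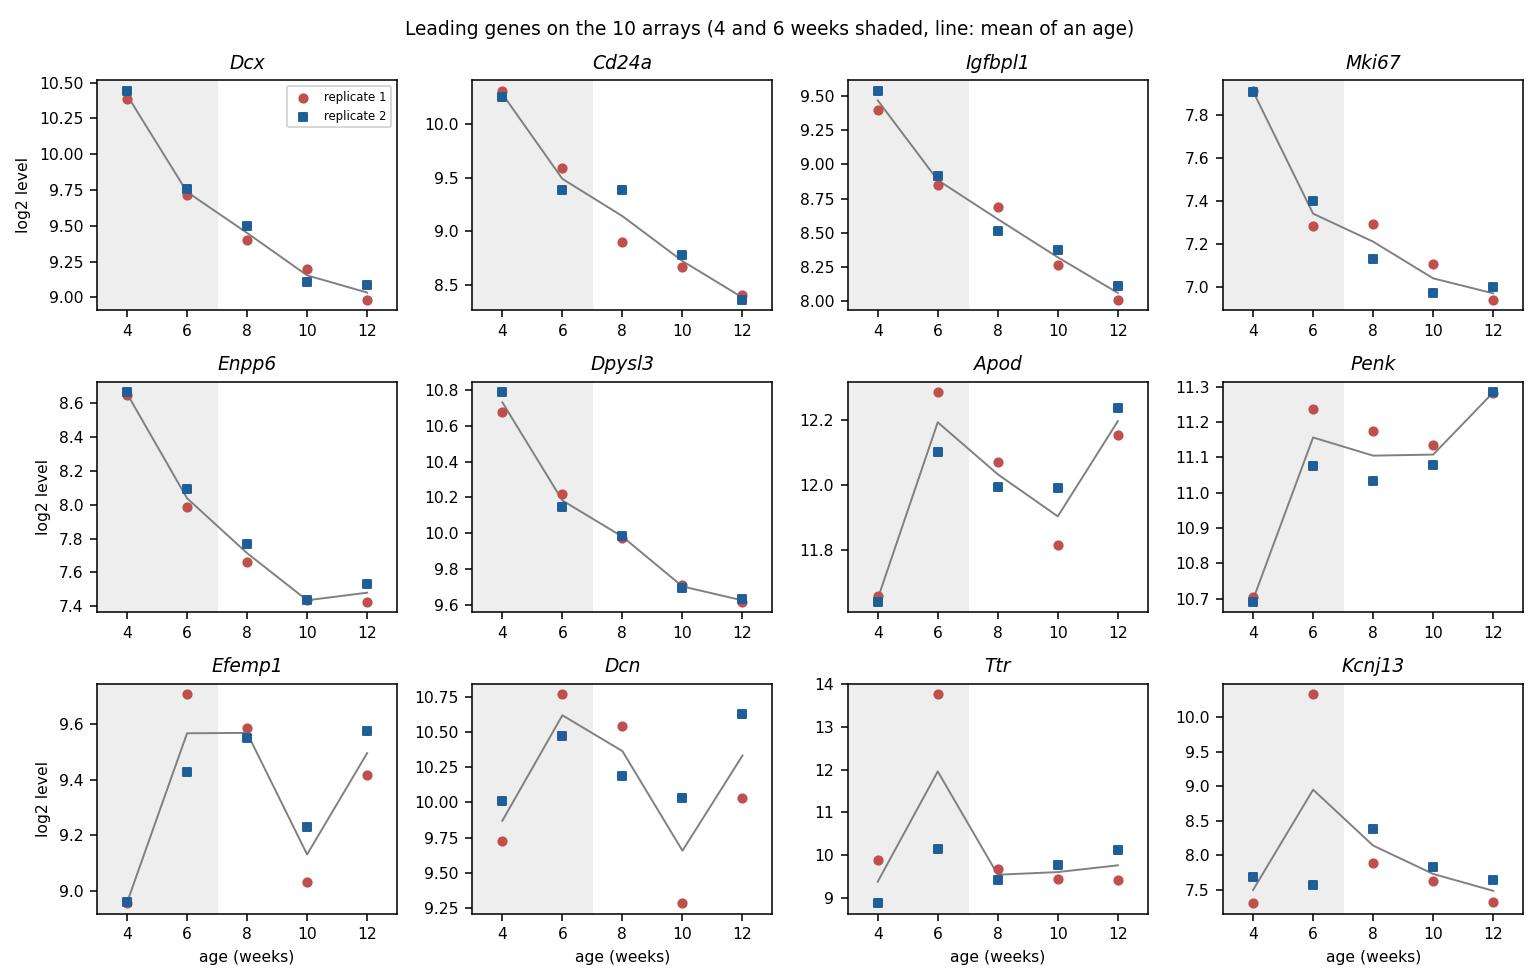
Log2 levels (vertical axes, each with its own range) of 12 genes against age in weeks; circles are replicate 1, squares replicate 2, the line joins the age means and the shaded ages are 4 and 6 weeks. Dcx, Cd24a, Igfbpl1, Mki67, Enpp6 and Dpysl3 lay lower on both 6-week arrays than on both 4-week arrays, Apod, Penk, Efemp1 and Dcn lay higher, and Ttr and Kcnj13 stood out on 6 weeks replicate 1, at 13.77 and 10.34.

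Intermediate progenitor genes lay lower in 12 of 20 measured members and higher in 0, with a median of -0.10 (-0.08 with 6 weeks replicate 2 alone). Igfbpl1, an insulin-like growth factor binding protein-like gene of progenitors and newborn neurons, read 9.40 and 9.54 at 4 weeks and 8.85 and 8.92 at 6 weeks (-0.58 ± 0.09, adjusted p = 0.357). Eomes, the T-box factor Tbr2 that defines these cells, differed by less: 8.24 and 8.30 against 8.11 and 8.00, or -0.22 ± 0.10. The separation within the list was therefore uneven, with Eomes at less than the size of Igfbpl1 and of Slc17a6, a vesicular glutamate transporter (-0.36 ± 0.15). Insm1, a zinc finger factor of progenitors leaving the cycle, differed by -0.24 ± 0.08, Cdk6, a G1 kinase, by -0.29 ± 0.09, and the neuropeptide gene Tac2 by -0.37 ± 0.13.

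Of 56 mitosis genes, 24 lay lower on both 6-week arrays and 3 higher, with a median of -0.10 (-0.09 with 6 weeks replicate 2 alone). Signal limited this list, since 24 of the 56 were dim, with both age means under 7.01. Mki67, the proliferation antigen Ki-67 (chr7:135689784-135716450, GRCm38.p6), read 7.91 and 7.91 at 4 weeks and 7.28 and 7.40 at 6 weeks (-0.57 ± 0.08, adjusted p = 0.354). Ccna2, the S and G2 phase cyclin A2, read 8.18 and 8.06 and then 7.61 and 7.80, and Top2a, the topoisomerase that untangles replicated chromosomes, read 7.72 and 7.52 and then 7.13 and 7.29. Neither gene's ages overlapped. The spindle checkpoint kinase gene Bub1 had the largest difference of the list (-0.63 ± 0.12), but it was dim at both ages, from 6.65 and 6.50 to 6.12 and 5.77. Cks2, a cyclin kinase subunit, Ect2, a cytokinesis exchange factor, and Tpx2, a spindle assembly factor chosen after its values were seen, differed by -0.30 ± 0.10, -0.31 ± 0.08 and -0.27 ± 0.09.

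DNA replication genes were less uniform, with 14 of 35 lower, 4 higher and a median of -0.05 (-0.03 with 6 weeks replicate 2 alone). Mcm7, a subunit of the replicative helicase, read 8.56 and 8.58 and then 8.37 and 8.26 (-0.26 ± 0.07), whereas its partner Mcm2 differed by -0.08 ± 0.09. Rrm2, a ribonucleotide reductase subunit, and Pole, the leading strand polymerase, differed by -0.19 ± 0.07 and -0.21 ± 0.08. The 6-week means of Pole and of Ect2 were under the dim reference.

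Promoters of mitotic genes are known to carry the cell cycle genes homology region (CHR) and CCAAT boxes, and the promoters of Mki67 and Top2a are shown because both genes lay lower at 6 weeks and carry both. The sequences are those of RefSeq for GRCm38.p6, from 250 bases before to 50 after a start given there, read on the gene's strand, which is minus for both (chr7:135716330-135716629 and chr11:99024140-99024439). For Mki67 that start lies inside the outer end of the gene as given above. Capitals mark TTTGAA (CHR) and CCAAT on either strand; the motifs can share 1 letter where they adjoin.
Mki67: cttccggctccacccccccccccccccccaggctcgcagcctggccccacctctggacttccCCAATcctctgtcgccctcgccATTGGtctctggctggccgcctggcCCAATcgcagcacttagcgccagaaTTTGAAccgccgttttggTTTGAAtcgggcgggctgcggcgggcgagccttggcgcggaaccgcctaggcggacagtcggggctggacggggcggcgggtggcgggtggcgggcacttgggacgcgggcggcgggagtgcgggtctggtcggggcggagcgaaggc
Top2a: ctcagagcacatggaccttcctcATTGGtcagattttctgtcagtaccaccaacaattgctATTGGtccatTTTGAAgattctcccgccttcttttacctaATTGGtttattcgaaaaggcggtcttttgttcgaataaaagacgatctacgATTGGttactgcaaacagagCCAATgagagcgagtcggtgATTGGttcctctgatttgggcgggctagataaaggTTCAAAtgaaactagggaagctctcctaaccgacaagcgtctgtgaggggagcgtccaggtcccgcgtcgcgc
The Mki67 window held 2 matches to the CHR and 3 to the CCAAT box, and the Top2a window 2 and 6. RefSeq promoters were matched for 48 of the 56 mitosis genes, with 53 promoters. The CHR letters were in 39 of these 53 (73.6%) against 17.9% of all 32851 promoters of that length, and the CCAAT letters in 37 (69.8%) against 37.4%. Within the list, the CHR letters were in 14 of 21 promoters (66.7%) of genes that lay lower on both 6-week arrays and in 25 of 32 (78.1%) of the others. Promoters of DNA replication genes held the CHR letters in 4 of 35 (11.4%) and the CCAAT letters in 22 (62.9%). A match describes the letters and not a site of binding.

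Genes at the start of the lineage had a median difference close to 0. Of 24 genes of radial glia-like stem cells, 6 lay lower (25.0%, against 16.0% of all genes). On the higher side were 2 (8.33%, against 19.8% of all genes). The median was -0.0015 (-0.0036 with 6 weeks replicate 2 alone). Sox2, a stem cell transcription factor, differed by -0.13 ± 0.13, and Gfap, the glial filament protein shared with astrocytes, by 0.08 ± 0.08. Both overlapped between the ages. Hopx, a marker of quiescent stem cells and one of the 6 lower members, differed by -0.09 ± 0.08. The 2 on the higher side were Thrsp, a lipogenic regulator, with 10.45 and 10.32 at 4 weeks and 10.74 and 10.67 at 6 weeks (0.32 ± 0.10), and Etnppl, a phospholipid-related lyase also found in astrocytes, with 7.90 and 7.87 and then 8.12 and 8.49 (0.42 ± 0.26). Of 28 mature granule cell genes, 11 (39.3%) lay higher and 4 lower. Their median was 0.02, against 0.0001 with 6 weeks replicate 2 alone and -0.0059 after median centring, a scaling that lowers the difference of every gene alike. Smad3, a signal carrier of TGF-beta receptors, read 11.25 and 11.24 and then 11.47 and 11.44 (0.21 ± 0.07), and Plk5, a polo-like kinase of neurons, read 9.82 and 9.93 and then 10.31 and 10.04. Ntng1, a netrin-G adhesion protein chosen after its values were seen, differed by 0.29 ± 0.10. Gsg1l, an AMPA receptor auxiliary protein, differed by 0.21 ± 0.07. These granule cell genes were all named from the higher side. Prox1 and Calb1, which head the list, overlapped between the ages, and the lowest member differed by -0.19. With 6 weeks replicate 2 alone, 14 members had a positive and 14 a negative difference.

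**Figure D2:**
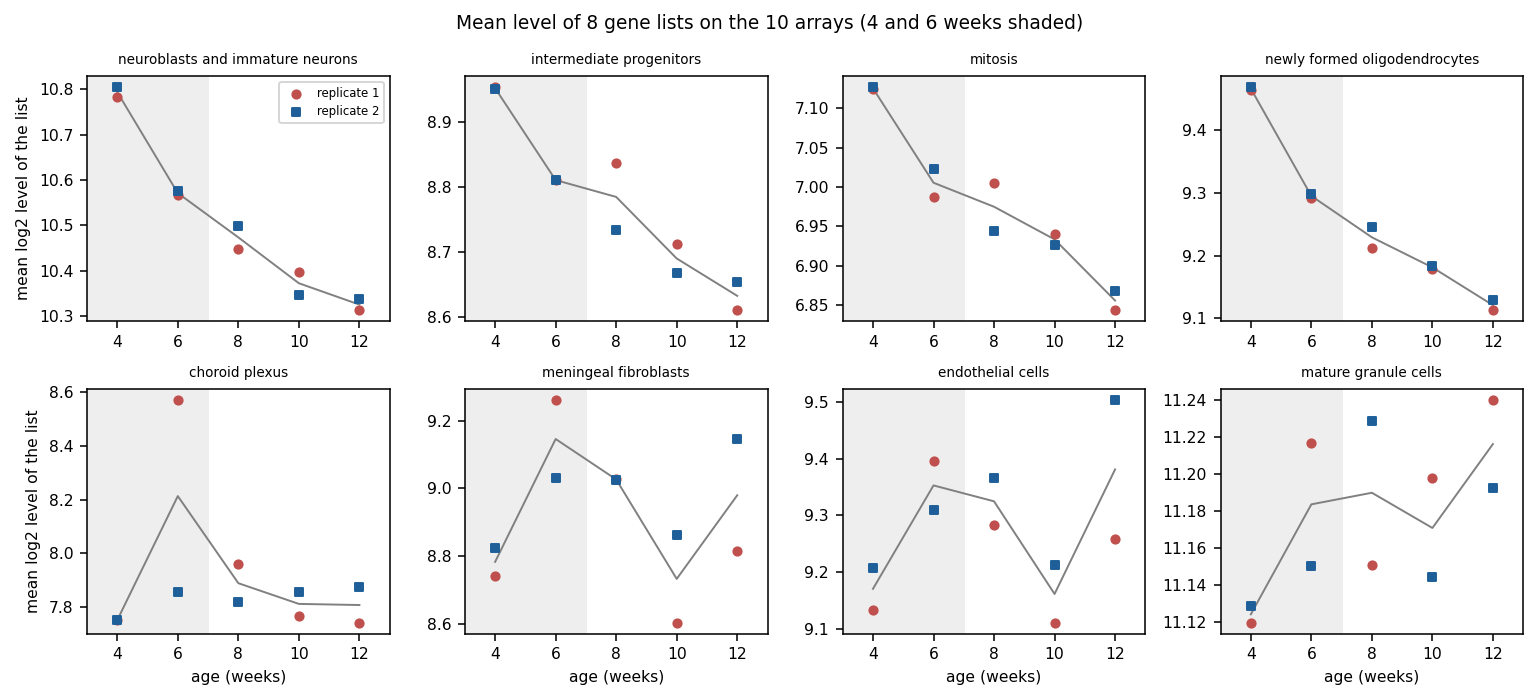
Mean log2 level (vertical axes, each with its own range) of 8 gene lists against age in weeks; circles are replicate 1, squares replicate 2, the line joins the age means and the shaded ages are 4 and 6 weeks. The neuroblast mean was 10.78 and 10.80 at 4 weeks and 10.57 and 10.58 at 6 weeks, with replicates close together, whereas the choroid plexus mean stood out on 6 weeks replicate 1 alone.

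The oligodendrocyte lineage showed its clearest difference at the premyelinating stage. Of 20 genes of newly formed oligodendrocytes, 15 lay lower on both 6-week arrays and 0 higher, with a median of -0.15 (-0.14 with 6 weeks replicate 2 alone). Enpp6, a choline phosphodiesterase that marks cells starting to myelinate (chr8:46939197-47096762, GRCm38.p6), read 8.65 and 8.66 at 4 weeks and 7.98 and 8.09 at 6 weeks. Its difference was -0.62 ± 0.07 (adjusted p = 0.105), and -0.56 ± 0.09 without 6 weeks replicate 1. Rnf122, a ubiquitin ligase, differed by -0.37 ± 0.08, and Gpr17, a receptor of committed precursors, read 9.52 and 9.56 and then 9.36 and 9.16. Both had non-overlapping ages. Bmp4, a secreted morphogen made by these cells, and Tns3, a focal adhesion protein, differed by -0.25 ± 0.08 and -0.23 ± 0.07.

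Precursor genes showed the same side with smaller sizes: 8 of 16 lay lower and 2 higher, with a median of -0.05 (-0.07 with 6 weeks replicate 2 alone). Pdgfra, the growth factor receptor of precursors, and Olig1, a lineage factor, each differed by -0.14, with standard errors of 0.10 and 0.07. Genes of myelinating cells divided, with 9 of 32 lower and 6 higher and a median of -0.03 (-0.012 with 6 weeks replicate 2 alone). Ugt8a, which makes the myelin lipid galactosylceramide, read 10.21 and 10.17 and then 9.75 and 9.82 (-0.41 ± 0.09), and Cnp, a myelin enzyme, 12.05 and 12.08 and then 11.81 and 11.89. Mag and Mog, myelin surface proteins, differed by -0.17 ± 0.08 and -0.15 ± 0.08. On the other side were Apod, a lipid-binding lipocalin of mature glia, with 11.66 and 11.64 and then 12.28 and 12.10 (0.54 ± 0.09, adjusted p = 0.484, and 0.45 ± 0.10 without 6 weeks replicate 1), and Trf, the iron carrier transferrin, with 11.23 and 11.14 and then 11.56 and 11.47. Apod and Trf are also made outside oligodendrocytes, and both were higher on 6 weeks replicate 1 than on replicate 2.

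**Figure D3:**
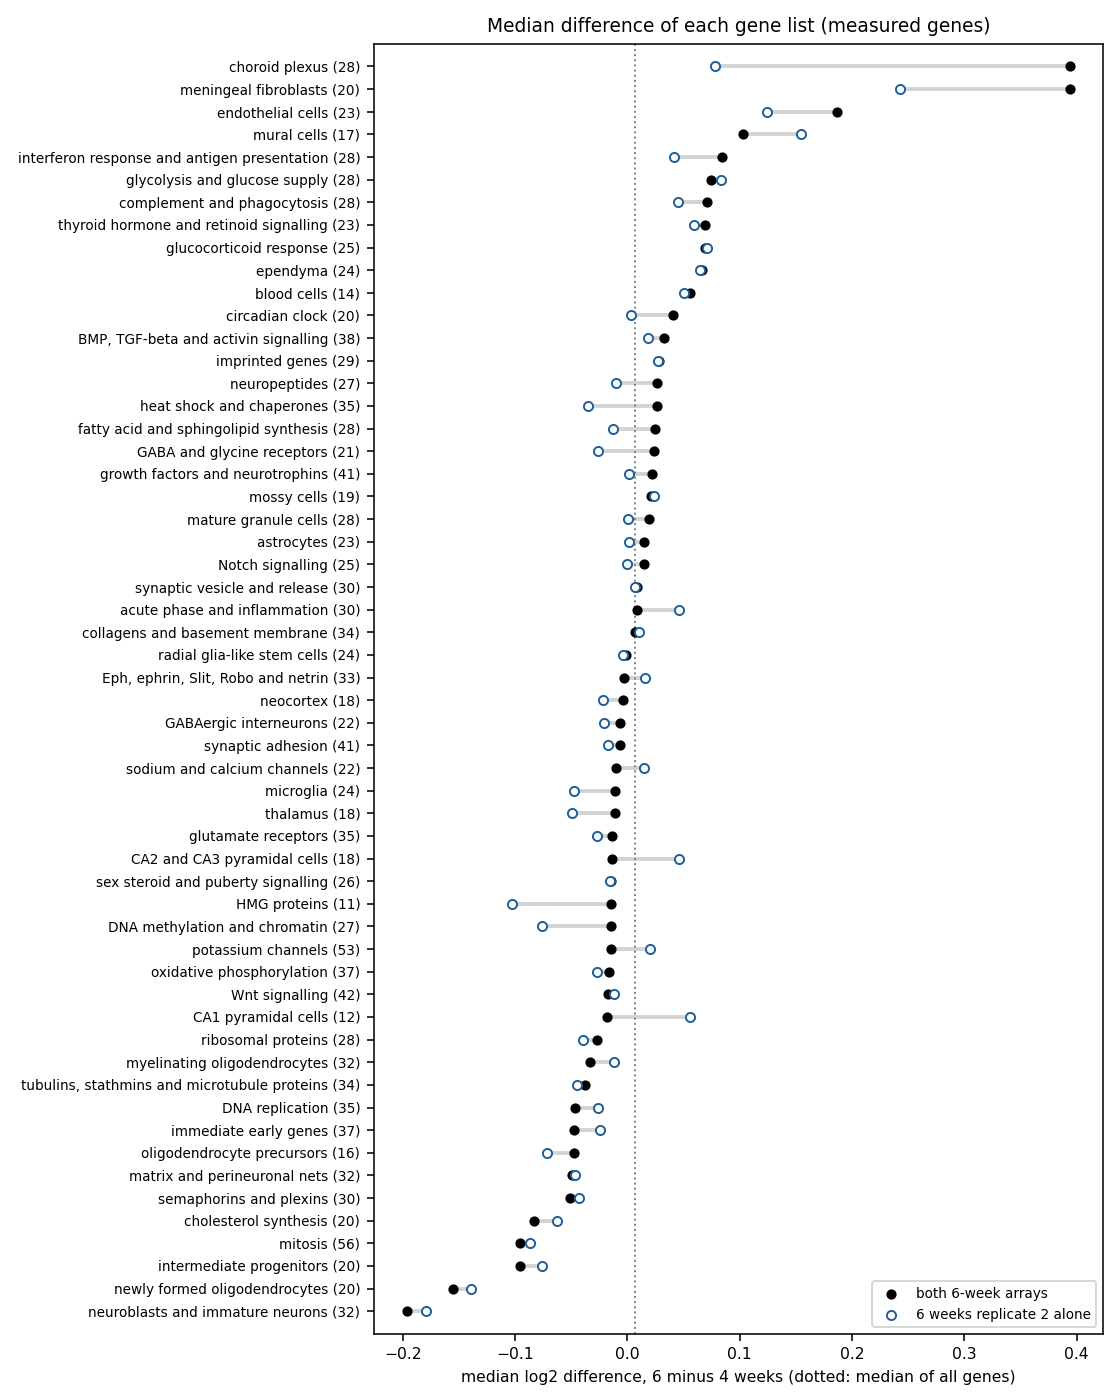
Median log2 difference of 6 minus 4 weeks (horizontal axis) for 56 gene lists, named at the left with the number of measured genes; filled points use both 6-week arrays, open points 6 weeks replicate 2 alone, and the dotted line is the median of all genes, 0.0064. Neuroblast genes lie at the low end with both settings, and the choroid plexus list at the high end moves from 0.39 to 0.08 when 6 weeks replicate 1 is left out.

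Genes of axon guidance, matrix and cholesterol synthesis lay lower in part. Of 30 semaphorins and plexins, the guidance cues and their receptors, 14 lay lower and 3 higher, with a median of -0.05 (-0.04 with 6 weeks replicate 2 alone). Sema6a read 9.95 and 10.03 and then 9.69 and 9.69, and Sema4d 9.97 and 9.99 and then 9.75 and 9.75. Sema4g differed by -0.29 ± 0.11. Among the Eph, ephrin, Slit, Robo and netrin genes 8 of 33 lay lower and 8 higher, so that family had no shared side.

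Of 32 matrix and perineuronal net genes, 13 lay lower and 5 higher, with a median of -0.05 in both settings. Tnc, the tenascin of neurogenic niches, had the largest difference, 9.25 and 9.25 at 4 weeks against 8.70 and 8.50 at 6 weeks (-0.65 ± 0.13, adjusted p = 0.499, and -0.75 ± 0.16 without 6 weeks replicate 1). Hapln1, a link protein of hyaluronan nets, and Bcan, the proteoglycan brevican, differed by -0.22 ± 0.07 and -0.18 ± 0.09, and Adamts4, a protease that cuts brevican, by -0.26 ± 0.10. Of 20 cholesterol synthesis genes, 13 lay lower and 1 higher, with a median of -0.08 (-0.06 with 6 weeks replicate 2 alone). Their sizes were small: the epoxidase Sqle differed by -0.25 ± 0.13, the demethylase Cyp51 by -0.18 ± 0.08 and the synthase Hmgcs1 by -0.12 ± 0.11. Fatty acid and sphingolipid synthesis did not share this side, with 6 of 28 genes lower, 2 higher and a median of 0.02, which was -0.012 with 6 weeks replicate 2 alone and -0.0003 after median centring. Among Wnt signalling genes 10 of 42 lay lower and 8 higher. Sfrp1, a secreted Wnt antagonist, stood out with 8.88 and 8.87 and then 8.56 and 8.34 (-0.43 ± 0.10).

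Of 27 DNA methylation and chromatin genes, 10 lay lower and 3 higher, with a median of -0.0145, or -0.08 with 6 weeks replicate 2 alone. Zfp57, which keeps methylation at imprinted genes, read 9.37 and 9.21 and then 8.97 and 8.75 (-0.43 ± 0.09, adjusted p = 0.499). Tet1, which oxidizes methylcytosine, read 10.90 and 10.91 and then 10.58 and 10.62, and Dnmt3a, a de novo methyltransferase, 9.57 and 9.69 and then 9.35 and 9.35. Further genes with wide gaps on the lower side were Ide, the insulin-degrading protease (11.24 and 10.95, then 10.50 and 10.41), Glra2, the juvenile glycine receptor subunit (10.00 and 10.06, then 9.70 and 9.45), and Cd180, a Toll-like receptor relative of immune cells (8.90 and 8.89, then 8.49 and 8.26). Frmd3, a cytoskeletal adaptor, and Mex3a, an RNA-binding protein, differed by -0.45 ± 0.09 and -0.37 ± 0.10. Between the 4-week arrays, Ide differed by more than the other genes in this group.

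Most meningeal and vascular genes lay higher at 6 weeks, on both arrays. Of 20 meningeal fibroblast genes, 16 lay higher and 0 lower, with a median of 0.39, and 0.24 with 6 weeks replicate 2 alone. The collagen genes that head the list differed by less, Col1a1 by 0.002 ± 0.10, Col1a2 by 0.11 ± 0.11 and Col3a1 by 0.02 ± 0.09. Col1a1 and Col3a1 overlapped between the ages. Of 34 collagen and basement membrane genes, 7 lay higher and 3 lower, with a median of 0.0066. The meningeal genes named after this were all taken from the higher side. The mean level of the meningeal list was 8.74 and 8.82 at 4 weeks and 9.26 and 9.03 at 6 weeks. Arrays of one later age could also lie apart. The list mean was 9.03 and 9.02 at 8 weeks, 8.60 and 8.86 at 10 weeks, and 8.81 and 9.15 at 12 weeks. Dcn, the collagen-binding proteoglycan decorin, read 9.73 and 10.01 at 4 weeks and 10.77 and 10.47 at 6 weeks (0.75 ± 0.27). Fmod, the related fibromodulin, read 8.97 and 8.98 and then 9.87 and 9.47, and Aldh1a2, the retinoic acid synthase of meninges, 7.75 and 7.79 and then 8.66 and 8.21. In each of these 3 genes 6 weeks replicate 1 was the highest array and replicate 2 still lay above both 4-week arrays.

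In the further members named next, replicate 1 was again the higher 6-week array. Mgp, an inhibitor of calcification, read 7.99 and 8.17 and then 8.75 and 8.55 (0.57 ± 0.10, adjusted p = 0.484). Igf2, a growth factor made by meninges and choroid plexus, differed by 0.56 ± 0.21, and the transporters Slc6a13 and Slc13a4 by 0.60 ± 0.22 and 0.67 ± 0.28. Bmp6, a secreted morphogen, differed by 0.50 ± 0.17, and Islr and Ptgds, a matrix protein and a prostaglandin synthase chosen after their values were seen, by 0.36 ± 0.09 and 0.46 ± 0.13. Outside the list, Efemp1, a fibulin, read 8.96 and 8.96 and then 9.71 and 9.43 (0.61 ± 0.11), Prelp, a matrix proteoglycan, 9.82 and 9.72 and then 10.56 and 10.31, while Slc6a20a, a proline transporter, differed by 0.80 ± 0.21. The part of a differing share of meninges in the dissected tissue was not tested.

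Of 23 endothelial genes, 16 lay higher and 0 lower, with a median of 0.19 (0.12 with 6 weeks replicate 2 alone). The endothelial list mean was 9.13 and 9.21 at 4 weeks and 9.40 and 9.31 at 6 weeks. It was 9.28 and 9.37 at 8 weeks and 9.11 and 9.21 at 10 weeks, and the 12-week arrays lay further apart, at 9.26 and 9.50. Pecam1, the junction protein CD31, read 8.06 and 8.01 and then 8.38 and 8.30 (0.30 ± 0.08). Slc2a1, the glucose transporter of the blood-brain barrier, read 11.47 and 11.61 and then 11.90 and 11.78, and Flt1, a VEGF receptor, 9.53 and 9.39 and then 9.71 and 9.72. Cldn5, the claudin that seals this barrier, differed by 0.36 ± 0.14, and Podxl, a surface sialomucin chosen after its values were seen, by 0.24 ± 0.07. Of 17 mural cell genes, 10 lay higher and 2 lower, with a median of 0.10 that was 0.15 with 6 weeks replicate 2 alone. Vtn, the matrix protein vitronectin made by pericytes, read 10.14 and 10.39 and then 10.83 and 10.60, Anpep, a membrane peptidase, differed by 0.53 ± 0.18, and Acta2, smooth muscle actin, by 0.37 ± 0.20.

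Choroid plexus genes lay higher mainly on one array. Of 28 measured, 18 had both 6-week arrays above the 4-week arrays and 0 below, and the median was 0.39, but with 6 weeks replicate 2 alone it was 0.08. Ttr read 9.88 and 8.87 at 4 weeks, 13.77 on 6 weeks replicate 1 and 10.15 on replicate 2, a difference of 2.58 ± 0.91 that was 0.77 ± 0.40 without replicate 1. Kcnj13, a potassium channel of this epithelium, read 7.30 and 7.69 and then 10.34 and 7.57, so that replicate 2 lay within the 4-week range. Clic6, a chloride channel protein, read 6.13 and 6.37 and then 7.98 and 6.39, with only the first 6-week array above the dim reference. Folr1, the folate receptor, and Kl, the hormone co-receptor Klotho, differed by 0.62 ± 0.25 and 0.51 ± 0.19 with both arrays and by 0.12 ± 0.14 and 0.13 ± 0.10 with replicate 2 alone.

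Ace, the angiotensin-converting enzyme, and Htr2c, a serotonin receptor abundant in choroid plexus, both chosen after their values were seen, read 9.08 and 8.87 on 6 weeks replicate 1 and 8.14 and 7.67 on replicate 2. Without 6 weeks replicate 2, limma passed 10 genes, all higher: Ace, Clec2d, Clic6, Htr2c, Kcnj13, Kl, Prl, Sostdc1, Sulf1 and Ttr. That setting leaves as the only 6-week array the one already marked by its Ttr level and assumes that it varies like the arrays of other ages, so these calls describe that array and are no separate evidence about age. Pituitary hormone genes were highest on the same array, but were not high on it alone. Gh, growth hormone, read 7.68 and 7.68 at 4 weeks and 10.42 and 8.40 at 6 weeks, and Prl, prolactin, chosen after its values were seen, 6.48 and 6.60 and then 7.50 and 6.69. At 8 weeks Gh read 8.86 and 8.94 and Prl 7.21 and 7.26, and at 10 weeks Gh read 9.28 and 8.25. The 4-week means of Folr1 and Prl were under the dim reference. With the mean choroid plexus level as a covariate, the difference of Dcx was -0.64.

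**Figure D4:**
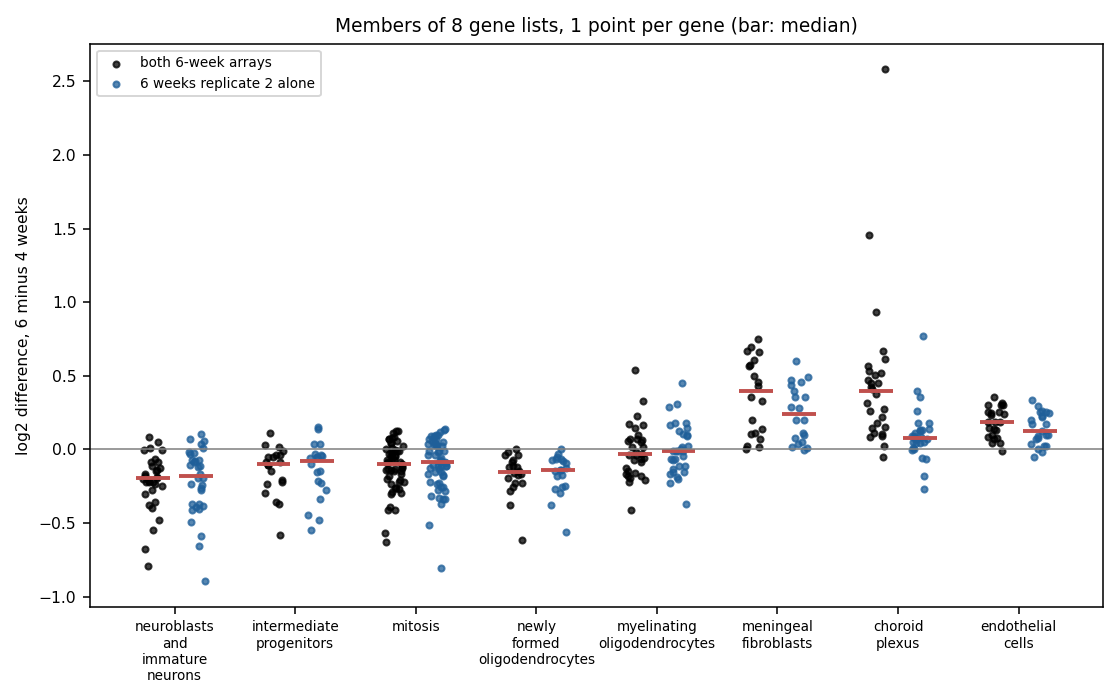
Log2 difference of 6 minus 4 weeks (vertical axis) for each measured gene of 8 lists, with 1 point per gene and a bar at the median; black points use both 6-week arrays and blue points 6 weeks replicate 2 alone. The medians of neuroblast and newly formed oligodendrocyte genes lie below 0 in both settings, those of meningeal and endothelial genes above 0 in both, and the choroid plexus points reach 2.58 (Ttr) with both arrays and 0.77 with replicate 2 alone.

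Hormone-responsive, retinoid and metabolic genes lay higher in part. Of 25 glucocorticoid response genes, 13 lay higher and 2 lower, with a median of 0.07 with and without 6 weeks replicate 1. Lcn2, an iron-trapping lipocalin of acute responses, read 6.70 and 6.66 at 4 weeks, under the dim reference, and 8.54 and 7.47 at 6 weeks (1.32 ± 0.32, and 0.79 ± 0.24 without 6 weeks replicate 1). Mertk, an engulfment receptor kinase, read 10.10 and 9.98 and then 10.42 and 10.37, and Pdk4, which diverts pyruvate from oxidation, 8.63 and 8.69 and then 9.01 and 8.93. Xdh, xanthine dehydrogenase, was nearly equal within each age, at 7.08 and 7.08 and then 7.46 and 7.46. Of 23 thyroid hormone and retinoid genes, which include Ttr and Aldh1a2, 11 lay higher and 2 lower, with a median of 0.07 (0.06 with 6 weeks replicate 2 alone). Stra6, the retinol uptake receptor, read 9.45 and 9.35 and then 9.95 and 9.87 (0.51 ± 0.10), and Rbp4, the retinol carrier, 8.07 and 8.03 and then 8.35 and 8.36. Both were named from the higher side. Dio2, of the same list, overlapped between the ages (0.07 ± 0.07, and -0.0001 with 6 weeks replicate 2 alone).

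Of 28 glycolysis and glucose supply genes, which include Slc2a1 and Pdk4, 12 lay higher and 2 lower, with a median of 0.07 (0.08 with 6 weeks replicate 2 alone). Nr1d1, the clock repressor Rev-erb alpha, read 11.98 and 11.73 and then 12.26 and 12.24, within a clock list in which 6 of 20 lay higher and 4 lower; the time of day of the dissections was not given. Neuropeptide genes lay on both sides. Penk, the enkephalin precursor, read 10.70 and 10.69 and then 11.24 and 11.08 (0.46 ± 0.08, adjusted p = 0.484), and Pdyn, the dynorphin precursor of granule cells, differed by 0.30 ± 0.13. Gal, galanin, read 8.57 and 8.91 and then 8.34 and 7.89 (-0.62 ± 0.15).

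Counts of other resident cell types were mixed. Of 24 microglial genes, 6 lay lower and 2 higher, and of 22 interneuron genes, 5 lay higher and 2 lower. Astrocyte genes lay higher in 9 of 23 (39.1%) and lower in 5, with a median of 0.0149, against 0.0013 with 6 weeks replicate 2 alone and -0.0103 after the median centring that lowers every gene alike. Gjb6, the glial connexin 30, and Htra1, a secreted protease, differed by 0.25 ± 0.07 and 0.20 ± 0.07. Hapln1, which is also in the astrocyte list, lay lower, with 9.82 and 9.93 and then 9.67 and 9.64. Immune genes with wide gaps were Cd74, the invariant chain of antigen presentation (6.93 and 6.92, both under the dim reference, then 7.53 and 7.25), Fxyd5, a sodium pump regulator (9.51 and 9.42, then 10.03 and 9.94), and Gpnmb, a glycoprotein of phagocytes (8.77 and 8.66, then 9.29 and 9.15). Cp, the copper carrier ceruloplasmin, differed by 0.62 ± 0.15, and Tmem267, a membrane protein, by 0.49 ± 0.18. Lcn2, Cp and Fxyd5 belong to a list of 30 acute phase and inflammation genes. In that list 6 lay higher (20.0%) and 5 lower (16.7%), near the shares of all genes (19.8% and 16.0%). Its median was 0.0085, so the list had no shared side. Markers of neighbouring regions were split, with 4 of 18 neocortical genes higher and 4 lower, and 2 of 18 thalamic genes higher and 3 lower.

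The step was then set beside the later ones. The comparison of 8 with 6 weeks shares the 6-week arrays, so the values are given side by side without a test of likeness. In limma 0 genes passed in any of the later 2-week steps either, with 1234, 946 and 1104 genes at an unadjusted p under 0.05 for 8 versus 6, 10 versus 8 and 12 versus 10 weeks, while 12 versus 4 weeks passed 102. Dcx differed by -0.68 in the first step and by -0.29, -0.30 and -0.12 in the later ones. Mki67 differed by -0.57 and then by -0.13, -0.17 and -0.07, and Enpp6 by -0.62 and then by -0.32, -0.28 and 0.04. Eomes and Sema3c were spread more evenly, with -0.22 and then -0.39, -0.35 and -0.08 for Eomes, and -0.39 and then -0.39, -0.17 and -0.26 for Sema3c. Ugt8a differed by -0.41 and -0.36 in the first 2 steps and by 0.01 and 0.02 after that.

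The first step minus the mean of the 3 later steps was tested directly. In limma 0 of 19752 genes (0.0%) passed, with 667 (3.38%) at an unadjusted p under 0.05, so no gene was shown to differ more in the first step than in the later ones. Dcx, Mki67, Enpp6 and Apod were named for wide gaps in the first step, which is part of this contrast. Its size in these genes is therefore not separate evidence. The same limit holds for the other genes given here, whose ages did not overlap in the first step either. The contrast was -0.44 ± 0.09 for Dcx, -0.45 ± 0.10 for Mki67, -0.43 ± 0.09 for Enpp6 and 0.54 ± 0.10 for Apod. It was 0.06 ± 0.12 for Eomes and -0.12 ± 0.10 for Sema3c. Penk was 0.42 ± 0.09, with a level that stayed near its 6-week value until 10 weeks (-0.05 and 0.003 in the next 2 steps). Dcn had differences of both signs, by 0.75 and then by -0.25, -0.71 and 0.67. Without 6 weeks replicate 2, this contrast passed 12 genes, among them Ttr, Kcnj13 and Gh, which again rest on the single array marked by Ttr.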

How the data were processed

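Total RNA was measured on Affymetrix whole-transcript arrays, labelled with a terminal labelling kit per the labels' protocols. The deposited values per probe set were taken as log2 from their range of 2.5 to 15.04; log base, software and normalization are not given in the sources used here. The build was mm10, per the submitters' processing notes; coordinates come from a RefSeq gene table of GRCm38.p6.

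Of 25254 probe sets, 21496 had 1 gene, 1565 several and 2193 none. For 938 genes with several probe sets the one of highest mean was kept, which left 19752 genes with no filter. Age was fitted as a factor over all 10 arrays in limma 3.58.1 (R 4.3.3; 5 residual degrees of freedom), two-sided, after the script had been tested on simulated data. Errors are standard errors of the fit; the number of arrays limits their precision.

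Named genes were the 15 in each direction with the widest gap between ages (dim genes left out), the 5 largest differences in each direction, and the first 3 and the 5 widest gaps of each of 57 lists; the text gives part of these. Predicted genes were counted and not named. The members and lists were chosen with earlier results of these data known. Alternatives were other scalings, filters, variance models, a replicate block, a choroid plexus covariate and leaving out arrays.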

Additional observations from a re-analysis of the deposited data

How the results depend on the processing

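With 6 versus 4 weeks, limma passed 0 genes with both ages fitted alone, with median centring, with the mean over probe sets, with the choroid plexus covariate and with the replicate block (856 at an unadjusted p under 0.05, against 815 without it). It passed 1 gene with quantile normalization, 3 without the dimmest 30% of genes, 11 with trended and robust variances and 3 with array weights, and of these 1, 3, 8 and 3 belonged to the gene lists; leaving out arrays gave 0 to 10 genes, of which 0 to 6 belonged to the lists. For the first step minus the later pace, leaving out arrays gave 0 to 12 genes and the replicate block 0. The 10 and the 12 came from leaving out 6 weeks replicate 2, which keeps the array of high choroid plexus level. Leaving out 6 weeks replicate 1 and 8 weeks replicate 1 together, added after seeing the data, gave 0. Replicate numbers were not used to pair the arrays outside the replicate block. Deviations of same-numbered arrays of 4 and 6 weeks correlated at 0.106, and over the 10 pairs of ages at -0.335 to 0.160. These correlations cannot tell if same-numbered arrays were handled together. Of 117 genes compared between the ages in the report, 113 kept their sign under all 15 alternatives. Markers given only as ranges, the collagen genes and Dio2 were not counted. Among the markers, without 6 weeks replicate 1, Calb1 went from 0.0024 to -0.055 and Xist from -0.13 to 0.06. The other 4 of the 117 reversed under the choroid plexus covariate, Ace to -0.083, Clic6 to -0.017, Htr2c to -0.042 and Kcnj13 to -0.17; 3 of them are in the list that makes the covariate. The 2 arrays per age limit every comparison, and dim genes have little signal over background.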

Other observations

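Further pathway lists are given by their counts, to be read against the 19.8% of all genes that lay higher and the 16.0% that lay lower on both 6-week arrays. Of 35 glutamate receptor genes, which carry most fast excitation, 10 had both 6-week arrays below both 4-week arrays and 1 had them above, with a median difference of -0.0137 (-0.0272 with 6 weeks replicate 2 alone). Ribosomal protein genes lay lower in 10 of 28 and higher in 5, with a median of -0.027, and genes of oxidative phosphorylation lay lower in 9 of 37 and higher in 3, with a median of -0.0164.

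On the higher side, 14 of 38 genes of BMP, TGF-beta and activin signalling lay above on both arrays and 4 below, with a median of 0.03, and so did 9 of 28 complement and phagocytosis genes against 1 below, with a median of 0.07. Of 28 genes of interferon response and antigen presentation, 7 lay higher (25.0%, near the 19.8% of all genes) and 2 lower (7.14%). With 6 weeks replicate 2 alone, 12 lay above both 4-week arrays and 9 below both. The median of 0.08 was then 0.04. Imprinted genes lay higher in 9 of 29 and lower in 5; the list holds Igf2 and Dcn, which are also meningeal genes. Ifit3b, an interferon-induced gene, had the largest difference on the lower side with 6 weeks replicate 2 alone, at -0.97, but was dim, with 5.91 and 6.15 at 4 weeks and 5.45 and 5.06 at 6 weeks.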
